A study of Mus musculus with 6 samples.

Results

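The enzymes that make UDP-N-acetylglucosamine (UDP-GlcNAc) from glucose, and the enzymes that put this sugar on proteins and take it off again, were examined in astrocytes sorted from mice made hyperglycemic with streptozotocin (STZ) and from vehicle-treated mice. The genes were chosen by name. Of the 9 names searched, 8 were rows of the deposited table, among 45777 genes listed in all, and the ninth, Mgea5, is an older symbol of Oga. All 8 genes had counts in every sample and were tested.

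The hexosamine pathway branches from glycolysis at fructose 6-phosphate, which receives an amino group from glutamine and is then acetylated, isomerized and joined to UTP. Its product, UDP-GlcNAc, feeds N-glycans, glycolipid anchors and hyaluronan, and it is the donor for O-GlcNAc, a single sugar that OGT attaches to serine and threonine residues of nuclear and cytosolic proteins and that OGA removes. As the pathway draws on glucose, glutamine, acetyl-CoA and UTP, it is often described as a nutrient sensor, and it is a classical topic in diabetic tissue. In the brain, O-GlcNAc is carried by many neuronal and glial proteins, and the amounts of OGT and OGA mRNA are known to be tied to the level of the modification through splicing.

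All mice carried a tamoxifen-inducible Cre under the Aldh1l1 promoter and a Cre-dependent tdTomato reporter, so that cells active for the astrocyte gene Aldh1l1 at the time of tamoxifen (75 mg/kg, 5 daily injections) were labelled in both groups. The GEO labels give the genotype only as WT. At 8 weeks of age, male mice on a C57BL/6 background received STZ (150 mg/kg, a toxin of pancreatic beta cells) or citrate buffer as vehicle, and STZ-treated animals were kept only where their blood glucose was high 5 days later. Each sample held the tdTomato-positive cells of 3 mice, pooled, and there were 3 vehicle and 3 STZ samples. Total read counts ranged from 52529048 to 58749115 per sample, and the members had between 500 and 26986 counts in a sample. Counts are given below as normalized CPM, the count scaled by the effective library size.

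The sorted cells were checked against marker genes in TPM, a share of all transcripts that is scaled to transcript length. The 10 astrocyte markers summed to between 14174 and 17190 TPM with vehicle and between 14450 and 15951 TPM with STZ, and 0 of them were at 0 in any sample. Single markers did not all follow this sum. By normalized CPM, groups lay apart for 1 marker higher with STZ (Gjb6) and 3 lower (Aldh1l1, Aqp4 and Slc1a2), beside 18.5% of all genes tested. Log2 fold changes were 0.27 for Gjb6, -0.22 for Aldh1l1, -0.48 for Aqp4 and -0.11 for Slc1a2. Aqp4 had an adjusted p of 0.280 from edgeR and 0.0169 from DESeq2. The 7 neuron markers summed to between 29.9 and 56.5 TPM over all samples, and Slc17a7 was at 0 in at least 1 sample. Markers of other cells were also present. The 10 microglia and macrophage markers summed to between 624 and 943 TPM with vehicle and between 612 and 846 TPM with STZ, and the 9 oligodendrocyte lineage markers to between 790.0 and 2051 TPM and between 1028 and 2879 TPM, so that both sums overlapped. The 9 choroid plexus and ependymal markers summed to between 10623 and 29991 TPM with vehicle and between 16250 and 26993 TPM with STZ, mostly through Ttr, and the lowest sum belonged to vehicle replicate 1. The 10 endothelial markers summed to 73.5 TPM or more with vehicle, below 260 TPM in each of those samples, and to between 260 and 492 TPM with STZ. The 10 pericyte, smooth muscle and fibroblast markers summed to between 60.5 and 72.7 TPM and between 88.0 and 115 TPM, so that both sums lay apart between the groups. Not every marker of this last list followed its sum. In normalized CPM, 3 of the 10 had groups apart (Acta2, Myh11 and Tagln, higher with STZ), beside 18.5% of all genes tested. Pdgfrb, with the most TPM of the list, had means of 80.0 with vehicle and 75.6 with STZ, and Col1a1 and Lum also had lower means with STZ. The share of the hexosamine transcripts that came from cells other than astrocytes was not tested. In sorted bulk samples, fewer cells of a type and less RNA per cell cannot be told apart.

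The first step of the pathway is made by a pair of paralogs, Gfpt1 and Gfpt2, the glutamine-fructose-6-phosphate transaminases that set the rate of the pathway. Their start regions are shown because these separate genes encode the same reaction, and because the transcription factor XBP1, which is known to drive Gfpt1 in other tissues, was among the genes compared here. Sequences are from RefSeq on GRCm38.p6, each with 250 bases before and 50 bases after the annotated start, on the plus strand, at chr6:87042596-87042895 for Gfpt1 and chr11:49793905-49794204 for Gfpt2. Capitals mark CCACG (a core of the elements that XBP1 and ATF6 read), GGGCGG (the GC box) and TATAA, each searched on both strands:
Gfpt1: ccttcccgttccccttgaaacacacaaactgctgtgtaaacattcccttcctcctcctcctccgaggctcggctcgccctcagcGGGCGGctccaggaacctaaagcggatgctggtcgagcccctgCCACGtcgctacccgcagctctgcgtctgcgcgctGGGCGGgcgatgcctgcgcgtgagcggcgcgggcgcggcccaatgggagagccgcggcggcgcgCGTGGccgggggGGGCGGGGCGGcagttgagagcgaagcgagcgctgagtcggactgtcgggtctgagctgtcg
Gfpt2: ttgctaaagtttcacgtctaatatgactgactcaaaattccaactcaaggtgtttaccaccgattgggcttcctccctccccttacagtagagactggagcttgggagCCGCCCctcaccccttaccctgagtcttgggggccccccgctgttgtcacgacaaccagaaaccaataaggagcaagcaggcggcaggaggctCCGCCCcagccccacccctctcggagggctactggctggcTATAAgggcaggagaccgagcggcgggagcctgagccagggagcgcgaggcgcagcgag

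The start region of Gfpt1 held CCACG 2 times, at -123 and, on the other strand, at -24, and GGGCGG 4 times, the last pair sharing a base. That of Gfpt2 held CCACG 0 times, GGGCGG 2 times and TATAA 1 time, at -9. Among 32851 start regions of the same length, 32.8% held CCACG, 35.7% held GGGCGG and 24.9% held TATAA on either strand, so each motif is common. The other members held between 0 and 1 CCACG and between 1 and 6 GGGCGG in their start regions, which were matched for 7 of the 8 genes, without Gnpnat1. The Gfpt1 region was also richer in G and C (70.3%, with 38 CG pairs) than that of Gfpt2 (60.7%, with 15 CG pairs). These matches are letters only and were not tied to any measurement of binding.

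To describe how much of each mRNA the astrocytes held, the members were ordered by TPM. Ogt, the O-GlcNAc transferase, stood far above the rest, with 212, 173 and 171 TPM in the vehicle samples and 162, 178 and 168 TPM in the STZ samples, a TPM level above 95.9% of the genes tested. Oga, the O-GlcNAcase, followed with 49.7, 46.0 and 44.6 TPM with vehicle and 43.5, 45.3 and 32.1 TPM with STZ. Nagk, the kinase that returns salvaged N-acetylglucosamine to the pathway, had between 31.3 and 36.5 TPM over the 6 samples. The mutase Pgm3 and the pyrophosphorylase Uap1 had between 17.3 and 24.3 TPM and between 20.5 and 23.7 TPM, and the acetyltransferase Gnpnat1 between 14.5 and 18.1 TPM.

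The entry enzymes had the least mRNA of the 8 genes. Gfpt2 had between 6.27 and 7.79 TPM and Gfpt1 between 4.71 and 6.14 TPM over the 6 samples, TPM levels above 54.0% and 48.8% of the genes tested. Each gene exceeded the next in this order in 6 of 6 samples, except Pgm3 and Uap1, which kept their order in 4 of 6 samples with a ratio of 1.01 ± 0.114 (SD, n = 6) and did not differ beyond their spread. Gfpt2 exceeded Gfpt1 by a ratio of 1.42 ± 0.147 (SD, n = 6), between 1.23 and 1.65. Gnpnat1 exceeded Gfpt2 by a ratio of 2.19 ± 0.254 (SD, n = 6).

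**Figure D1:**
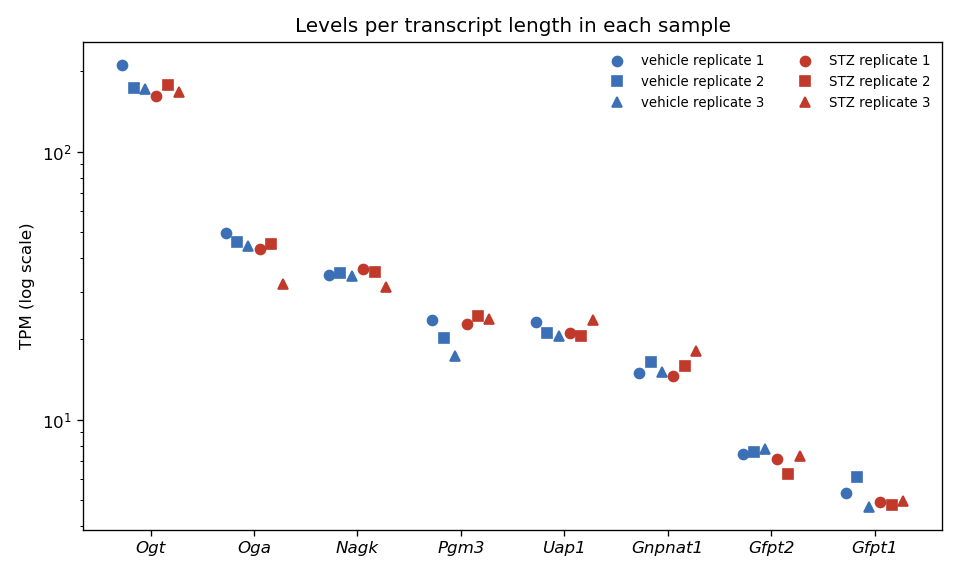
TPM on a log scale for the 8 genes, ordered by their mean over 6 samples, with each point 1 sample (blue vehicle, red STZ). Ogt is at 162 TPM in its lowest sample, and the highest value of Gfpt1 and Gfpt2 is 7.79 TPM.

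To ask whether hyperglycemia changed these mRNAs, read counts were compared with edgeR's quasi-likelihood test over all 22337 genes with a count in every sample. None of the 8 genes was called, which required an adjusted p under 0.05 and more than a 1.5-fold change (0 higher and 0 lower in STZ). EdgeR called 0.0224% of all genes, 0.00895% higher and 0.0134% lower, so few calls were made anywhere. At an unadjusted p under 0.05 there were 0 of the 8, beside 11.3% of all genes, 5.63% higher and 5.65% lower. The Wald test of DESeq2, the tool named in the study's methods, also called 0 of the 8 (1.05% of all genes), with 0 at an unadjusted p under 0.05 (10.3% of all genes). Log2 fold changes were negative for 6 genes and positive for 2 (51.9% of all genes were above 0), with a median of -0.08 beside 0.01 over all genes tested. The 95% intervals of the 8 fold changes ran from 0.707 at the lowest to 1.26 at the highest, so for each of the 8 genes a change of 1.5-fold lay outside the interval in both directions. Such an interval was found for 44.4% of all genes, and for 61.0% of the genes at a mean of at least 1 CPM. Each interval covers 1 gene at a time and is not widened for the number of genes.

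**Figure D2:**
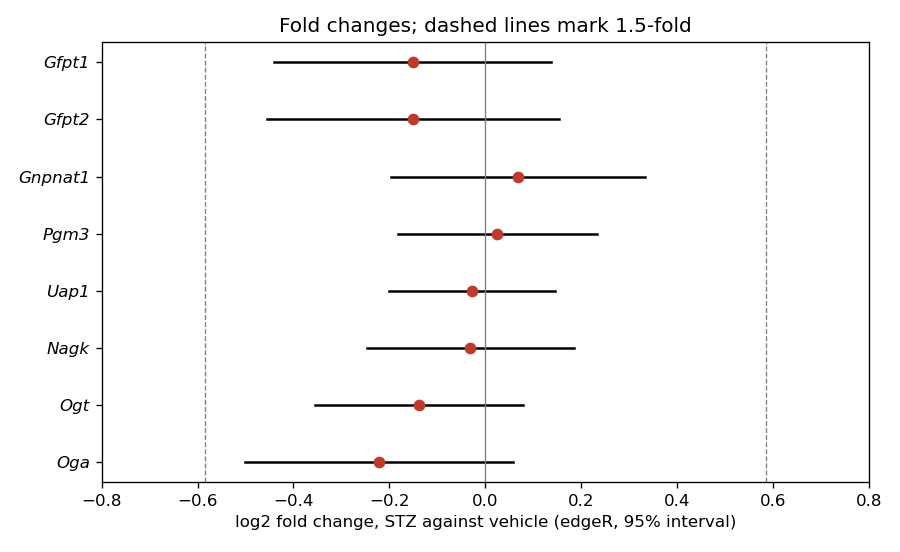
Log2 fold changes of STZ against vehicle (points) with 95% intervals (lines) from edgeR, and dashed lines at 1.5-fold. Every interval includes 0 and none reaches 1.5-fold, with the outermost bounds at fold changes of 0.707 (Oga, lower bound) and 1.26 (Gnpnat1, upper bound).

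The entry step was given by its values in each sample. Gfpt1 (NCBI gene 14583, chromosome 6, 87042846 to 87092207) had 15.0, 17.8 and 13.9 normalized CPM with vehicle and 13.9, 13.7 and 14.5 with STZ. Vehicle replicate 2 was the highest, and the groups overlapped. The means were 15.6 ± 2.02 and 14.0 ± 0.401 (SD, n = 3 each), and the log2 fold change was -0.15 (95% interval -0.44 to 0.14, adjusted p = 0.667 from edgeR). Gfpt2 (NCBI gene 14584, chromosome 11, 49794155 to 49838620), the paralog often associated with stromal and neural cells, had 9.996, 10.5 and 11.0 normalized CPM with vehicle and 9.61, 8.59 and 10.2 with STZ. Its groups overlapped through STZ replicate 3. The log2 fold change was -0.15 (95% interval -0.45 to 0.15, adjusted p = 0.690 from edgeR). Gfpt2 lies within the span of Gm36507, a long noncoding RNA that had between 6 and 28 counts per sample against between 500 and 632 for Gfpt2.

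The 3 middle steps lay close together in the groups, with log2 fold changes between -0.03 and 0.07. Gnpnat1 (NCBI gene 54342, chromosome 14, 45376421 to 45388987), which acetylates glucosamine 6-phosphate, had 17.2, 20.9 and 18.6 normalized CPM with vehicle and 18.5, 19.2 and 21.7 in STZ samples. The log2 fold change was 0.07 (95% interval -0.20 to 0.33, adjusted p = 0.849 from edgeR). Pgm3 (NCBI gene 109785, chromosome 9, 86552476 to 86571878), which moves the phosphate from carbon 6 to carbon 1, had 27.3, 31.6 and 27.5 normalized CPM with vehicle and 28.1, 30.5 and 29.3 in STZ samples. The log2 fold change was 0.03 (95% interval -0.18 to 0.23, adjusted p = 0.939 from edgeR). Uap1 (NCBI gene 107652, chromosome 1, 170141223 to 170174964), which joins the sugar to UTP, had 27.8, 29.9 and 29.7 normalized CPM with vehicle and 28.4, 28.2 and 29.1 in STZ samples. The log2 fold change was -0.03 (95% interval -0.20 to 0.15, adjusted p = 0.911 from edgeR). All 3 genes had overlapping groups.

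The salvage kinase Nagk (NCBI gene 56174, chromosome 6, 83794983 to 83802556) had 21.4, 22.5 and 22.3 normalized CPM with vehicle and 22.8, 22.2 and 19.7 with STZ. STZ replicate 3 was the lowest of the 6 samples and STZ replicate 1 the highest. The log2 fold change was -0.03 (95% interval -0.25 to 0.19, adjusted p = 0.924 from edgeR). Gnpnat1 overlaps the gene Styx by 464 bases and Pgm3 overlaps Dop1a by 3331 bases, each with its partner on the opposite strand. No source used here says whether reads were counted by strand, and reads of these overlaps can go to either gene. Styx had a mean of 6.82 normalized CPM with vehicle and 7.33 with STZ, and Dop1a 19.9 and 19.8, with log2 fold changes of 0.10 and -0.01.

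**Figure D3:**
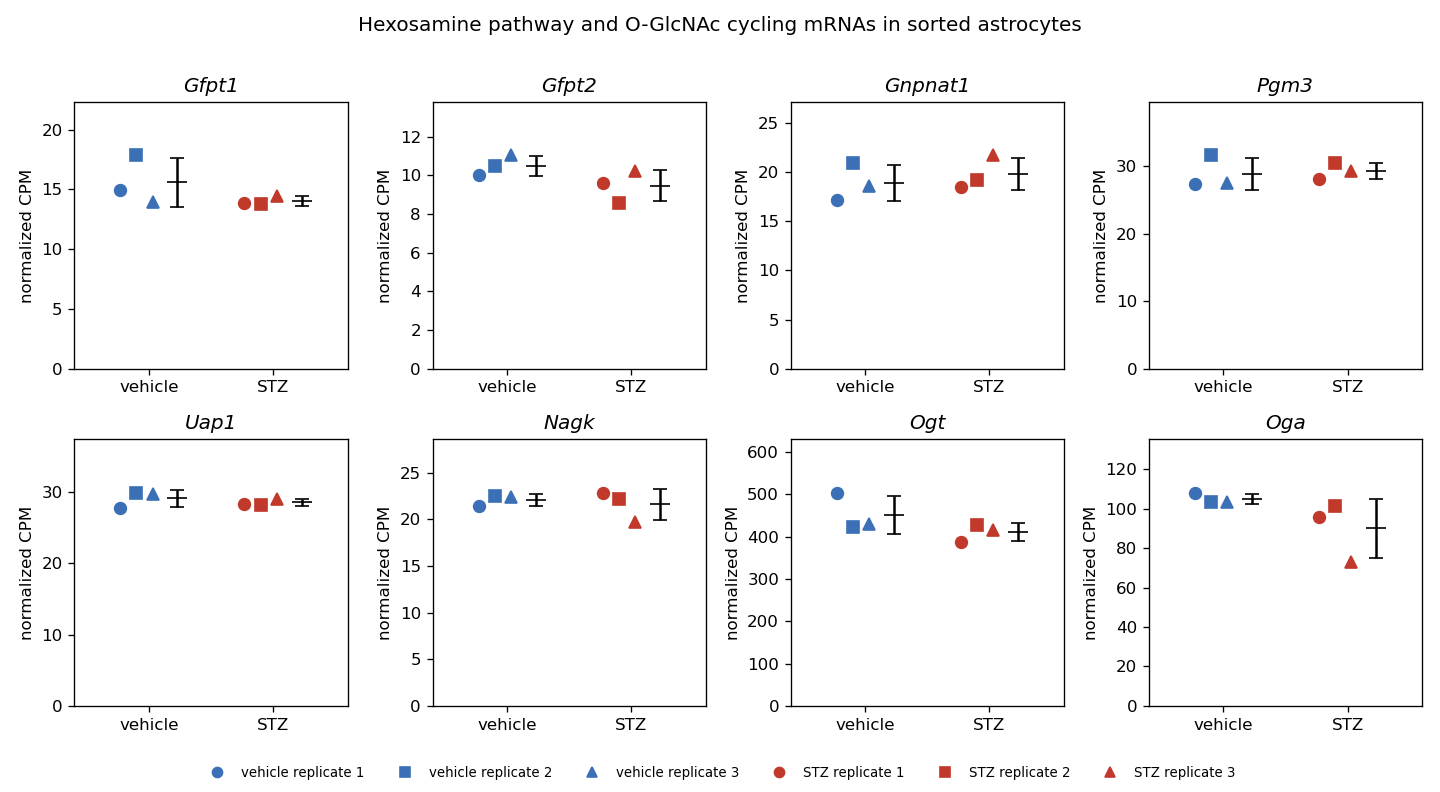
Normalized CPM of the 8 genes in each sample (circle, square and triangle for replicates 1, 2 and 3, blue vehicle, red STZ), with the mean and SD of each group in black and every axis from 0. Only Oga has groups that do not overlap, with its lowest value, 73.1, in STZ replicate 3.

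The enzymes of O-GlcNAc cycling had the most mRNA of the 8 genes, and Oga had the largest fold difference between the groups. Ogt (NCBI gene 108155, chromosome X, 101640011 to 101684351) had 503, 422 and 430.1 normalized CPM with vehicle and 387, 428 and 415 with STZ. Vehicle replicate 1 was the highest, and the other vehicle samples lay within or just above the STZ samples. The means were 452 ± 44.9 and 410.3 ± 20.7 (SD, n = 3 each), and the log2 fold change was -0.14 (95% interval -0.36 to 0.08, adjusted p = 0.598 from edgeR). Without vehicle replicate 1 the log2 fold change of Ogt was -0.06.

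Oga (NCBI gene 76055, chromosome 19, 45750255 to 45783644) had 108, 104 and 103 normalized CPM with vehicle and 95.6, 101 and 73.1 with STZ. In this unit every STZ sample was below every vehicle sample, by a small margin for STZ replicate 2 and by a wide one for STZ replicate 3. In TPM the groups overlapped, with 45.3 in STZ replicate 2 and 44.6 in vehicle replicate 3, and so they did in FPKM (19.9 and 19.5). Among all genes tested, 9.85% had groups apart in this direction and 8.64% in the other, 18.5% in all, so 1 member of 8 is near that background. The means were 105 ± 2.69 and 90.0 ± 14.9 (SD, n = 3 each), and the log2 fold change was -0.22 (95% interval -0.50 to 0.06, unadjusted p = 0.103, adjusted p = 0.523 from edgeR). The value rested on STZ replicate 3, without which the log2 fold change of Oga was -0.09, while without STZ replicate 2 it was -0.31, with an unadjusted p of 0.0424 and an adjusted p of 0.656 from edgeR.

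The balance of the 2 cycling enzymes was described by their TPM ratio. Ogt over Oga was 4.26, 3.75 and 3.83 in the vehicle samples and 3.73, 3.92 and 5.22 in the STZ samples, with means of 3.95 ± 0.273 and 4.29 ± 0.814 (SD, n = 3 per group). STZ replicate 1 had the lowest ratio and STZ replicate 3 the highest, so the groups overlapped. For Gfpt2 over Gfpt1 the ratio had a mean of 1.43 ± 0.212 in vehicle samples and 1.41 ± 0.0923 in STZ samples (SD, n = 3). The summed TPM of the 5 synthesis genes Gfpt1, Gfpt2, Gnpnat1, Pgm3 and Uap1 had a mean of 70.4 ± 4.62 in vehicle samples and 73.4 ± 3.91 in STZ samples (SD, n = 3), also with overlap. In FPKM the same sums were 29.9 ± 1.21 and 32.3 ± 1.93 and did not overlap, by a narrow margin (30.67 in the highest vehicle sample, 30.74 in the lowest STZ sample). In normalized CPM, which is not scaled by length, each of the 5 genes had overlapping groups. Gnpnat1 over the sum of Gfpt1 and Gfpt2, a ratio picked after its values were seen, was 1.17, 1.20 and 1.20 with vehicle and 1.21, 1.43 and 1.47 with STZ, apart by a narrow margin. No test was made of these ratios and sums.

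For part of the pathway, counts and length-scaled values did not move together. Dividing the read count by the FPKM and by the library size gives the transcript length that the authors' values imply. For Gfpt1 this length was between 6.62 and 6.69 kb over the 6 samples, and for Oga between 5.17 and 5.20 kb. For Pgm3 it was 2.76, 3.60 and 3.56 kb in the vehicle samples and 2.92, 2.90 and 2.81 kb in the STZ samples. Vehicle replicates 2 and 3 thus stood above the other 4 samples, and the highest length was 1.31 times the lowest. A spread as wide was found in 3.76% of the 13821 genes with at least 100 counts in every sample. Uap1 and Gnpnat1 varied by 1.17 and 1.11 times, and Gfpt1, Gfpt2, Ogt, Oga and Nagk by at most 1.03 times. With limma on log2(TPM + 0.1), the log2 fold change of Pgm3 was 0.23 in place of 0.03 (adjusted p = 0.515 from limma). The TPM of Pgm3 was 23.5, 20.2 and 17.3 with vehicle and 22.8, 24.3 and 23.7 with STZ, still with overlap. The table lists 4 RefSeq transcripts for Pgm3, 6 for Uap1 and 4 for Gnpnat1. It lists 4 for Ogt, 3 for Oga, 10 for Nagk and 1 each for Gfpt1 and Gfpt2, whose lengths varied little. Values per transcript were not analysed here.

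**Figure D4:**
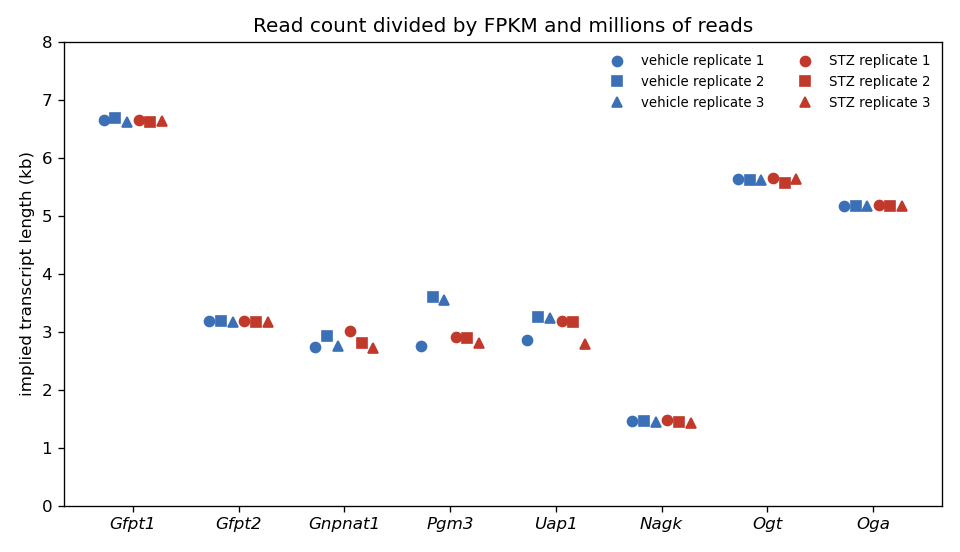
Transcript length in kb implied by the read count and the FPKM of each sample, for the 8 genes (blue vehicle, red STZ). Pgm3 reaches 3.60 and 3.56 kb in vehicle replicates 2 and 3 and lies between 2.76 and 2.92 kb in the other samples, while Gfpt1 stays between 6.62 and 6.69 kb.

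The steps around the pathway were followed through 8 lists of 74 genes, of which 73 were tested. EdgeR and DESeq2 called 0 of the 73. At an unadjusted edgeR p under 0.05 there were 10 genes (13.7%), 2 higher and 8 lower in STZ, beside 11.3% of all genes. Groups did not overlap for 18 genes (24.7%), 5 higher and 13 lower, beside 18.5% of all genes. The median log2 fold change was -0.05, and the smallest adjusted p was 0.282 from edgeR.

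Among 9 genes that bring glucose and glutamine to the pathway, the smallest p belonged to Slc2a1, the glucose transporter GLUT1, which endothelial cells also express at a high level. It had 560, 529 and 631 normalized CPM with vehicle and 736, 670 and 695 with STZ, each STZ sample above each vehicle sample. Its log2 fold change was 0.29 (95% interval 0.07 to 0.50, unadjusted p = 0.0150, adjusted p = 0.347 from edgeR), and the 10 endothelial markers all had positive log2 fold changes, with a median of 1.18 and 8 at an unadjusted p under 0.05. Their part in the value of Slc2a1 was not tested. Hk1, a hexokinase that traps glucose, had a log2 fold change of -0.22 (adjusted p = 0.411 from edgeR). The glutamine carrier Slc38a3, which was named after its values were seen, also had -0.22 (adjusted p = 0.437 from edgeR). The groups of both genes did not overlap. Another hexokinase gene, Hk2, also picked after its values were seen, moved in the opposite direction at 0.30 (adjusted p = 0.598 from edgeR). Its normalized CPM was 3.39, 2.68 and 3.51 in vehicle samples and 4.24, 4.02 and 3.54 in STZ samples, apart by a narrow margin. Within this list, groups lay apart for 2 genes higher in STZ (Slc2a1 and Hk2) and 2 lower (Hk1 and Slc38a3).

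The 8 genes of sugar recycling had 1 gene higher and 1 lower at an unadjusted p under 0.05. Amdhd2, the deacetylase that returns N-acetylglucosamine 6-phosphate toward glycolysis, had 24.6, 20.7 and 23.1 normalized CPM with vehicle and 28.2, 26.7 and 25.8 in STZ samples, giving 0.24 as log2 fold change (adjusted p = 0.417 from edgeR). Hexa, a lysosomal hexosaminidase subunit, had 202, 171 and 200 with vehicle and 139, 167 and 157 in STZ samples, giving -0.31 as log2 fold change (adjusted p = 0.349 from edgeR). The 10 genes of UTP supply had 0 at an unadjusted p under 0.05, with Ctps at a log2 fold change of 0.22 and Umps at -0.10 having the smallest p-values. The 6 genes of epimerization and sialic acid synthesis also had 0, and Slc35a1, a carrier of CMP-sialic acid, had a log2 fold change of -0.09.

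Of 5 nucleotide sugar transporters, 1 had an unadjusted p under 0.05, lower in STZ (5.65% of all genes were lower at this p). This gene, the UDP-galactose carrier Slc35a2, had a log2 fold change of -0.20 (adjusted p = 0.414 from edgeR) and Slc35b4 had -0.18 (adjusted p = 0.465). Of 19 tested genes of N-glycan, glycolipid anchor, hyaluronan and extracellular O-glycan synthesis, 3 had an unadjusted p under 0.05, all lower in STZ. Mgat5, which adds a branch to N-glycans, had 36.4, 34.9 and 30.7 normalized CPM with vehicle and 23.0, 26.5 and 28.9 in STZ samples, giving -0.38 as log2 fold change (95% interval -0.64 to -0.12, unadjusted p = 0.0102, adjusted p = 0.317 from edgeR and 0.153 from DESeq2). Rfng, a Fringe glycosyltransferase that extends sugars on Notch, had a log2 fold change of -0.26 (adjusted p = 0.322 from edgeR). Mgat1, which starts complex N-glycans and was named after its values were seen, had -0.17 (adjusted p = 0.402 from edgeR). Groups lay apart for 4 of the 19 genes, all lower in STZ (Mgat5, Rfng, Mgat1 and Mgat2), beside 9.85% of all genes apart in this direction. Has2, a hyaluronan synthase, was left out of the test for a count of 0 in a sample.

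The last lists held 10 partners and substrates of OGT and 6 transcription factors linked to Gfpt1. Bap1, a deubiquitinase found in a complex with OGT and HCF-1, had 77.1, 74.0 and 73.1 normalized CPM with vehicle and 63.8, 59.8 and 63.6 with STZ. All STZ samples were below all vehicle samples, and the log2 fold change was -0.26 (95% interval -0.41 to -0.11, unadjusted p = 0.00423, adjusted p = 0.282 from edgeR). Asxl1, a partner of BAP1, had a log2 fold change of 0.20 (adjusted p = 0.503 from edgeR). Xbp1 had 231, 216 and 205 normalized CPM with vehicle and 158, 202.1 and 202.4 in STZ samples, giving -0.21 as log2 fold change (adjusted p = 0.511 from edgeR), and Nfe2l2, the factor of the antioxidant response, had 0.13 (adjusted p = 0.517 from edgeR). Among the OGT partners, groups lay apart for 1 gene higher with STZ (Asxl1) and 2 lower (Bap1 and Tet1). Among the transcription factors they lay apart for 1 higher (Nfe2l2) and 2 lower (Xbp1 and Hsf1). Of all genes tested, 18.5% had groups apart.

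**Figure D5:**
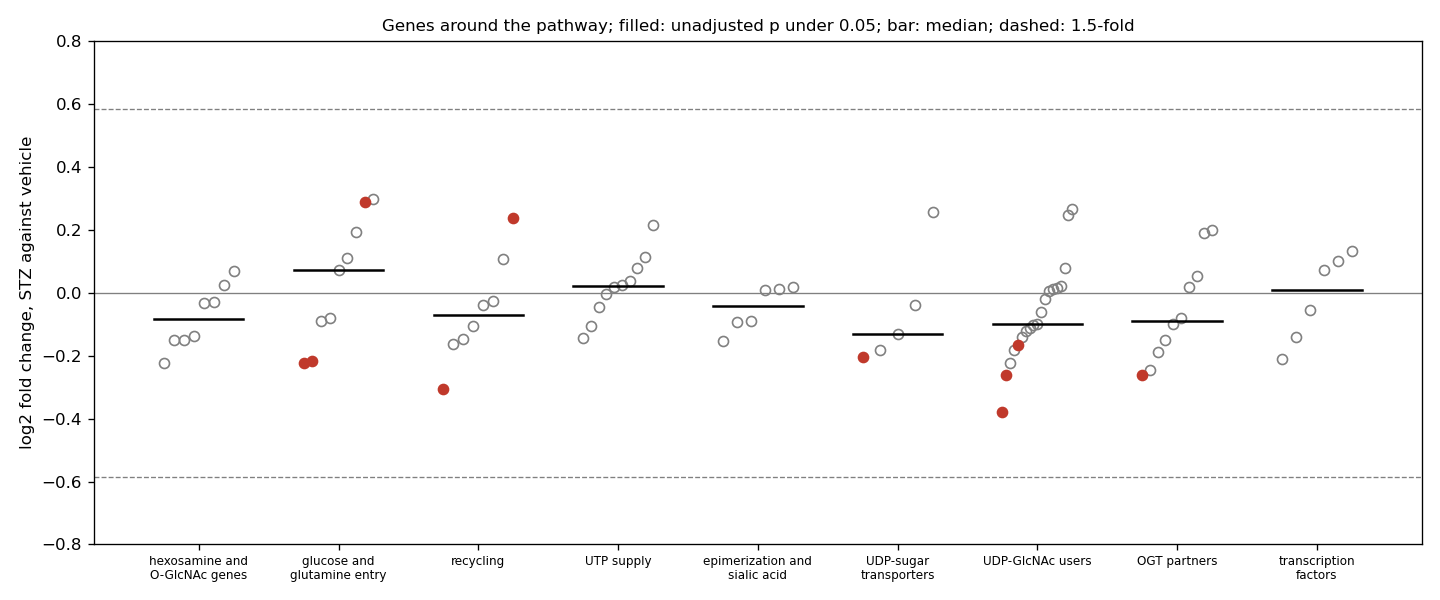
Log2 fold changes of STZ against vehicle for the 8 members and the 73 tested genes of the lists around them, each point 1 gene, filled where the unadjusted edgeR p was under 0.05, with bars at the medians and dashed lines at 1.5-fold. The members have 0 filled points, and the lowest point of all is Mgat5 at -0.38.

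Genes with the most similar pattern were sought for the entry enzyme and both cycling enzymes, by Pearson's correlation of log2 CPM over the 6 samples among 16251 genes. Those closest to Gfpt1 were Pcdhb12, Pex16 and Map3k7, with correlations of 0.97, 0.97 and 0.96, all highest in vehicle replicate 2. Those closest to Ogt were Phactr3, Ago3 and Mccc1os, each at 0.99 and highest in vehicle replicate 1. Those closest to Oga were Lypd1, Pcdhga8 and Ralgps1, at 0.996, 0.994 and 0.992, and each was lowest in STZ replicate 3. With so many genes and 6 samples such values are a description of shared sample order only.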

How the data were processed

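RNA of sorted tdTomato-positive astrocytes from 3 vehicle and 3 STZ pools was sequenced. According to the submitters' processing notes, the tools included Trimmomatic 0.38, HISAT2 2.1.0 and StringTie 2.1.3b, with mm10 as the build. The deposited table holds raw read counts for each gene, and FPKM and TPM that the authors scaled by transcript length. Strand use is not given in the sources used here.

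Groups and replicate numbers came from the sample titles. The test was the quasi-likelihood test of edgeR 4.0.16 (R 4.3.3), two-sided, after TMM scaling, on the 22337 genes with counts in all samples, with Benjamini-Hochberg adjustment over all of them. A gene was called where the adjusted p was below 0.05 and the change exceeded 1.5-fold. Alternatives were DESeq2 1.42.0, its size factors, other filters, a robust fit, a replicate block, limma 3.58.1 on TPM with pseudocounts of 1 and 0.1, thresholds with no fold limit, FPKM, and each sample left out. The edgeR and DESeq2 fits were tested on simulated data. The members and lists were chosen with earlier results of these data known. The text names all members, genes overlapping them, the 2 smallest p-values of each list, and the 3 genes most correlated with Gfpt1, Ogt and Oga. A gene that this rule selects is not reported here. Positions are from RefSeq on GRCm38.p6. P-values measure the spread between pools.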

Additional observations from a re-analysis of the deposited data

How the results depend on the processing

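None of the 8 hexosamine and O-GlcNAc genes was called in any of the 14 other fits, or with no fold limit. The fits included DESeq2, both pseudocounts, the replicate block and each sample left out. The replicate block, limma at either pseudocount, and each fit with a sample left out except that without vehicle replicate 3, called 0 of all genes. In those fits 0 calls among the members was thus fixed and adds no support. The other edgeR fits called at most 10 of all genes, and 5 were called at an adjusted p under 0.05 with no fold limit. There 0 of 8 was close to fixed as well and adds little. DESeq2 called 234 of all genes (1.05%), and 0 of 8 is near that share too. The smallest adjusted p of a member in any fit was 0.509 (Oga, edgeR's filterByExpr). The number at an unadjusted p under 0.05 was 0 in each fit except that without STZ replicate 2, where it was 1 (Oga), so it ranged from 0 to 1. The lists around the pathway also had 0 calls in each fit, with the same limit. Of 112 recomputed fold changes, 7 reversed, all of values near 0. Uap1 was 0.0118 with log2(TPM + 1) and 0.0122 with log2(TPM + 0.1). With a sample left out, Pgm3 lay between -0.0190 and 0.0833, Gnpnat1 between -0.00145 and 0.134, and Nagk between -0.0730 and 0.0302. The 76 recomputed levels and ratios all stayed within 1 SD, but this check could not have failed. Leaving out a sample cannot move such a mean by 1 SD, and ratios within a sample are the same in FPKM and TPM.

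The number of all genes called was 5, against 234 with DESeq2, 0 with the replicate block, 10 with the robust fit, 0 with limma at either pseudocount, and between 0 and 1 with a sample left out, and the cause was not tested. Same-numbered samples had deviations from their group means correlated at -0.10, -0.16 and -0.18, and differently numbered ones between -0.02 and 0.16. Same-numbered samples were thus not more alike, and whether the samples were paired was not tested. The study has 3 samples per group, each a pool, so spread between mice was not measured. After adjustment over all genes, edgeR told no difference under 1.5-fold from 0, calling 5 genes with or without the fold limit. Before adjustment, some 95% intervals of smaller differences left out 0, as for Bap1 (-0.41 to -0.11), while those of the members included 0. The lowest count of a member was 500 (Gfpt2), and the effect of depth was not tested.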
